A study of Mus musculus with 6 samples.

Results

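The genes of the Arp2/3 complex were examined on 6 Agilent arrays, each hybridized with the Cy3-labelled RNA of 1 culture of in vitro-induced regulatory T (iTreg) cells, 3 from cKO mice and 3 from control mice. The cKO mice (miR-31fl/flCD4Cre) carried loxP-flanked miR-31 alleles and the CD4Cre transgene, which deletes the microRNA in T cells that pass through the CD4-expressing thymic stage. The control mice (miR-31fl/fl) carried the same floxed alleles without Cre. Both were on a C57BL/6 background, to which the floxed allele had been backcrossed, and the methods give an age of 6 weeks. Naive CD4+CD25-Foxp3gfp-CD62Lhi cells, sorted from the spleen by the labels (the methods name spleen and lymph nodes), were cultured for 4 days with anti-CD3 (5 μg/ml), anti-CD28 (2 μg/ml), TGF-β1 (5 ng/ml) and IL-2 (40 ng/ml by the labels, while the methods name a lower dose). All probes named for Actr2, Actr3, Actr3b, Arpc1a, Arpc1b, Arpc2, Arpc3, Arpc4, Arpc5 or Arpc5l were taken, 13 probes for 10 of the 27376 genes named on the array. Actr3b was selected on its lower signal in cKO cells on these same arrays, so its difference is given as a description without a test, and the other 9 genes were tested.

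The Arp2/3 complex starts new actin filaments from the sides of existing ones and so builds the branched networks under the cell membrane. Actr2 and Actr3 encode Arp2 and Arp3, the actin-related subunits that form the base of the new branch, and the Arpc genes encode the subunits that hold them on the mother filament. The complex is inactive until a WASP family protein brings it an actin monomer, and in T cells it serves migration and the actin ring of the immunological synapse. Several subunits have a second gene: Actr3b for Arp3, Arpc1a and Arpc1b for ARPC1, and Arpc5 and Arpc5l for ARPC5. Actr3b is best known from the brain, and loss of ARPC1B, the ARPC1 form of blood cells, causes immune deficiency.

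The 2 mature miR-31 strands, whose gene was deleted in the cKO cells, are shown with the seed, bases 2 to 8, in capitals. The gene is on the minus strand of chromosome 4, at chr4:88910614-88910635 for miR-31-5p and chr4:88910577-88910599 for miR-31-3p (GRCm38.p6, RefSeq).
miR-31-5p: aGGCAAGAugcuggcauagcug
miR-31-3p: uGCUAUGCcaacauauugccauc
The letters that pair with these seeds, TCTTGCC and GCATAGC on the transcript strand, were in 0 of the 13 Arp2/3 probes, against 0.323% and 0.143% of the 41174 probes of the array. The probes cover only a stretch of 60 bases of each transcript, and the rest was not searched. The array has no probe named for miR-31, and these data therefore do not show the loss of the microRNA itself.

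The level of a probe is its log2 signal minus the 75th percentile of its array, so that a level of 0 is the 75th percentile. That percentile lay at a signal of 987.4 to 1147.5, and 49.28 to 57.66% of the spots were well above background by the scanner's own call. The 3 cKO arrays and control 1 shared a slide, and controls 2 and 3 were on another, so differences are also given within the first slide, where a single control array stands for its group. T cell identity was checked by marker genes: 8 of 8 T cell markers and 5 of 5 Treg markers with a probe were well above background on all 6 arrays. So were 2 of 2 CD8, 1 of 6 B cell, 0 of 7 myeloid, 1 of 5 erythroid, 2 of 6 epithelial and 1 of 6 neural markers. Among the Treg markers Foxp3, the defining factor of Treg cells, was lower on every cKO array. Its levels were 3.16, 3.12 and 2.45 against 3.42, 3.42 and 3.76 in the controls, a difference of -0.62 that did not pass the test (limma adjusted p = 0.19). All 13 Arp2/3 probes were well above background on at least 3 arrays and entered the test, and 12 of them were so on all 6. Since a probe's brightness depends on its sequence, levels were compared between arrays and not between genes.

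Actr3b, the second Arp3 gene, was lower on all 3 cKO arrays than on any control array, by both of its probes, and the size of the difference varied widely among the cKO arrays. Its brighter probe lies in the transcript BC053106 at chr5:25356185-25356244 (mm9, plus strand). Its levels were 1.09, -1.03 and -2.12 in cKO 1, 2 and 3, from signals of 2242, 512 and 227. In controls 1, 2 and 3 they were 1.54, 1.61 and 2.68, from signals of 3330, 3315 and 6844. The groups did not overlap, yet cKO 1 sat close to controls 1 and 2 while cKO 2 and cKO 3 lay far below them. The means were -0.69 ± 1.64 in cKO and 1.94 ± 0.64 in control cells (SD, n = 3 each), a difference of -2.63 on the log2 scale or 6.18-fold lower. Against the control mean, cKO 1 was lower by a log2 difference of -0.85, cKO 2 of -2.97 and cKO 3 of -4.06. Within the shared slide the difference was -2.22, and it was -3.52 without cKO 1 and -1.91 without cKO 3.

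The dimmer Actr3b probe lies upstream in the same gene, within the coding part of NM_001004365, at chr5:25337528-25337587 (mm9, plus strand). It is shown because it is the probe that lies in the Arp3-like coding sequence. Whether either Actr3b probe also pairs with Actr3 RNA was not tested. The letters are those of the transcript strand.
Actr3b probe: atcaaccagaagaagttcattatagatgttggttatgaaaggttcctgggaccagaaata
Its levels were -1.44, -4.14 and -5.04 in cKO 1, 2 and 3, from signals of 386, 59.3 and 30.0. In the controls they were -1.07, -0.89 and 0.05, from signals of 545, 587 and 1105. It was well above background on all 3 control arrays and on cKO 1 alone among the cKO arrays, so that the cKO 2 and cKO 3 values are near the detection limit. The means were -3.54 ± 1.87 and -0.64 ± 0.6 (SD, n = 3 each), a difference of -2.9, or -2.47 within the shared slide, whose size rests on the cKO 2 and cKO 3 signals that were not well above background. The pooled within-group SD was 1.24 for the brighter and 1.39 for the dimmer probe, against a median of 0.2 over all tested probes.

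For each marker list the levels were added on the linear scale and the log2 of the sum taken, so the brightest probes weigh most. Some of these sums also differed between the genotypes without overlap. Taken singly, 36.6% of all tested probes did so too. The sum of the 6 epithelial markers was 0.41 to 0.98 in cKO and -0.25 to -0.08 in control cells. Its brightest genes, Cdh1 (difference 1.01, limma adjusted p = 0.14) and Epcam (0.61, adjusted p = 0.16), were above the controls on every cKO array. Krt18 overlapped between the genotypes. Krt8, Krt19 and Cldn3 were not well above background on any array, and Cldn3 was below the controls on every cKO array. The sum of the erythroid list was -0.91 to 0.15 against -2.18 to -1.27, with 1 of 5 genes well above background on all arrays. That gene, Hbb-b1, differed by 2.1 (limma adjusted p = 0.16), while Hba-a1, which did not pass the filter, was below the controls on every cKO array. The sum of the 6 neural markers was lower in cKO cells, -1.89 to -1.3 against -1.21 to -1.01, and the defining neural genes Snap25, Stmn2 and Gfap were not well above background on any array. Of the 2 neural genes that passed the filter, Tubb3 differed by 0.33 (limma adjusted p = 0.41). Syp was at -4.69, -3.8 and -4.96 in the cKO arrays against -2.63, -2.64 and -1.96, a difference of -2.07. It was well above background on the 3 controls and on 1 cKO array. Syp thus passed the filter mostly through the controls, and its difference is given without a test. The T cell list was at 8.06 to 8.38 against 7.96 to 8.03. Its members differed in direction: Cd3d, Cd3g, Cd4 and Cd28 were above the controls on every cKO array and Cd3e below, while Cd5, Lck and Cd247 overlapped. The CD8 list was at 1.95 to 2.12 against 2.14 to 2.49, though Cd8a and Cd8b1 each overlapped when taken singly. None of these T cell and CD8 genes passed in limma, with 0.17 (Cd4) the smallest adjusted p. The Treg list (7.42 to 7.61 against 7.1 to 7.45), the B cell list (-0.84 to 0.35 against -1.35 to -0.66) and the myeloid list (-2.64 to -2.49 against -2.78 to -1.57, with 0 of 7 genes well above background on all arrays) overlapped between the genotypes. The Treg sum follows its brightest gene, Tnfrsf18 (difference 0.4), and its members differed in direction. Foxp3 was lower on every cKO array, Il2ra differed by -0.56, and Ctla4 was above the controls on every cKO array, by 0.94. For both Foxp3 and Il2ra, cKO 3 was the lowest and control 3 the highest array, as for Actr3b. None of these 4 genes passed in limma, with adjusted p of 0.29, 0.19, 0.33 and 0.14. The part of these cells and genes in the Actr3b difference was not tested. In bulk RNA, fewer cells of a type and less RNA per cell cannot be told apart.

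**Figure D1:**
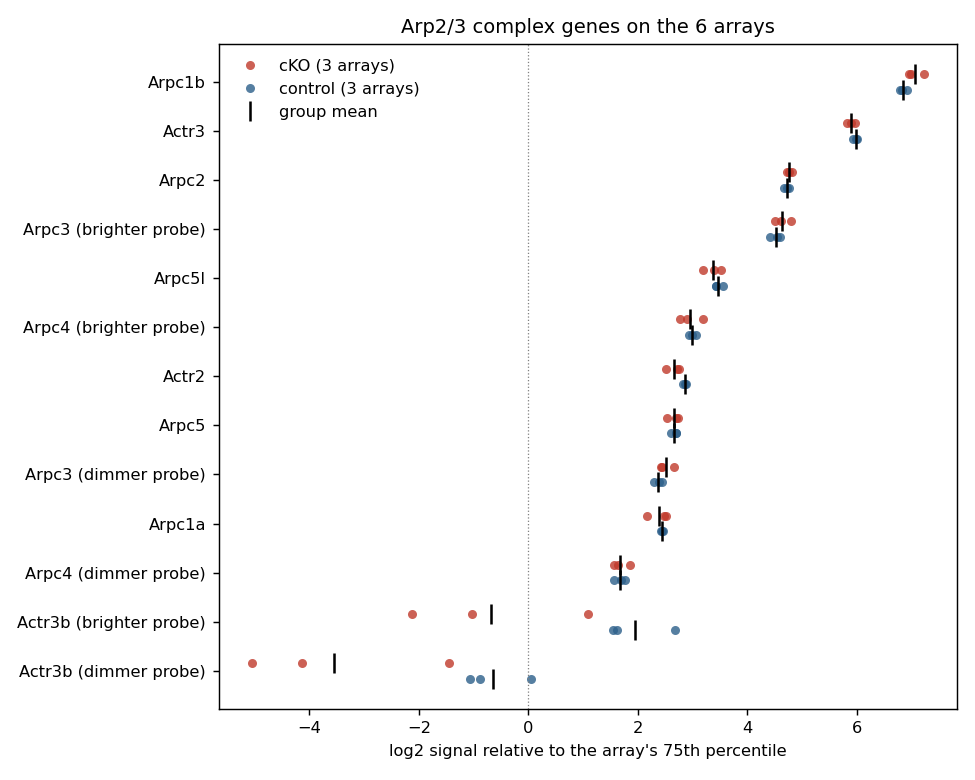
The log2 signal relative to the 75th percentile of the array (x axis) is plotted for each of the 13 Arp2/3 probes (rows), with 1 point for each of the 3 cKO and 3 control arrays and a bar at each group mean. The points of the 11 other probes lie close together, and those of both Actr3b probes spread over several log2 units, with cKO 2 and cKO 3 far to the left.

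The other 9 subunit genes did not share the Actr3b pattern. Over their 11 probes the cKO minus control difference lay between -0.2 and 0.21 on the log2 scale, with a median of -0.01, 5 probes higher and 6 lower, against a median of -0.04 over all 22281 tested probes. The median size of the difference was 0.09, against 0.24 over all tested probes, and the pooled within-group SD was 0.04 to 0.16. In limma, 0 of the 11 had an adjusted p under 0.05, where 0.242% of all tested probes did, and 0 had an unadjusted p under 0.05, where 23.0% did. The smallest adjusted p of the 11 was 0.29. The 95% intervals of the differences reached from -0.46 to 0.49, and smaller differences may be missed with 3 arrays a group. Within the shared slide the differences lay between -0.21 and 0.14. The groups were separated for 2 of the 11 probes, those of Arpc1b and Actr2, against 36.6% of all tested probes.

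Among the actin-related subunits, Actr3, the main Arp3 gene, had levels of 5.81, 5.96 and 5.89 in cKO 1, 2 and 3 and of 6.0, 5.99 and 5.93 in the controls (chr1:127289531-127289590, mm9, minus strand). The groups overlapped, and the difference was -0.09 (95% interval -0.32 to 0.15, limma adjusted p = 0.59), or -0.12 within the shared slide. Actr3 is the closest relative of Actr3b in the complex. Actr2, which encodes Arp2, had levels of 2.72, 2.75 and 2.51 in the cKO arrays and of 2.86, 2.88 and 2.83 in the controls (chr11:19962390-19962449, mm9, minus strand). All cKO arrays were below all controls, by a difference of -0.2 (interval -0.46 to 0.06, adjusted p = 0.29), -0.21 within the slide, which did not pass the test.

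Arpc1b encodes the form of ARPC1 that blood cells use, a propeller-shaped subunit that takes part in activation. Its levels were 6.99, 7.22 and 6.94 in the cKO arrays and 6.91, 6.79 and 6.82 in the controls (chr5:145888791-145888850, mm9, plus strand). Every cKO array was above every control, by a difference of 0.21 (interval -0.07 to 0.49, adjusted p = 0.31) that did not pass the test and was 0.14 within the shared slide. Its neighbour Arpc1a encodes the other form, and 0 genes lie between them in the RefSeq table. Arpc1a had levels of 2.48, 2.52 and 2.16 in the cKO arrays and of 2.46, 2.43 and 2.44 in the controls. The controls lay within the range of the cKO arrays, of which cKO 3 was the lowest, and the difference was -0.06 (interval -0.37 to 0.25, adjusted p = 0.77).

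Arpc2, which with ARPC4 forms the core that grips the mother filament, had levels of 4.72, 4.81 and 4.76 in the cKO arrays and of 4.67, 4.72 and 4.75 in the controls. The groups overlapped, with a difference of 0.05 (interval -0.18 to 0.27, adjusted p = 0.77). Arpc4 was read by 2 probes, at chr6:113339343-113339402 and chr6:113339029-113339088 (mm9, plus strand). The brighter gave 2.9, 3.19 and 2.76 in the cKO arrays and 3.06, 2.98 and 2.94 in the controls, and the dimmer gave 1.63, 1.85 and 1.56 against 1.77, 1.69 and 1.57. By both probes cKO 2 was the highest and cKO 3 the lowest of the 6 arrays, and the differences were -0.05 (interval -0.38 to 0.28, adjusted p = 0.85) and 0.01 (interval -0.29 to 0.3, adjusted p = 0.98).

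Arpc3, a subunit that contacts Arp3 at the edge of the complex, was also read by 2 probes. The brighter gave 4.51, 4.79 and 4.61 in the cKO arrays and 4.6, 4.53 and 4.42 in the controls, and the dimmer gave 2.43, 2.66 and 2.44 against 2.44, 2.38 and 2.29. The groups overlapped by both, with differences of 0.12 (interval -0.16 to 0.4, adjusted p = 0.54) and 0.14 (interval -0.13 to 0.41, adjusted p = 0.47), which shrank to 0.04 and 0.07 within the shared slide. The probes of Arpc1a, Arpc2 and Arpc3 are shown because they cross an intron in the array's mm9 annotation, so that they pair in full with spliced RNA and only in parts with genomic DNA. They lie on the plus strand at chr5:145867953-145869253, chr1:74301553-74302555 and, for the brighter Arpc3 probe, chr5:122855148-122855897.
Arpc1a probe: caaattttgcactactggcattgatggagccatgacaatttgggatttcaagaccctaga
Arpc2 probe: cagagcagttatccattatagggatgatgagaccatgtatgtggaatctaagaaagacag
Arpc3 probe: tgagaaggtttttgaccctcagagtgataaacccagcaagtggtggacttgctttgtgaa

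The ARPC5 subunit, which ties Arp2 to the rest of the complex, is also encoded by a pair of genes. Arpc5 had levels of 2.74, 2.7 and 2.53 in the cKO arrays and of 2.69, 2.69 and 2.6 in the controls (chr1:154618547-154618606, mm9, plus strand). The groups overlapped, and the difference was -0.01 (interval -0.26 to 0.25, adjusted p = 0.98). Arpc5l had levels of 3.39, 3.52 and 3.18 in the cKO arrays and of 3.43, 3.43 and 3.55 in the controls (chr2:38870740-38870799, mm9, plus strand). The groups overlapped here too, with cKO 3 the lowest, and the difference was -0.11 (interval -0.41 to 0.19, adjusted p = 0.6). In each of the pairs Arpc1a and Arpc1b, and Arpc5 and Arpc5l, neither gene passed the test.

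**Figure D2:**
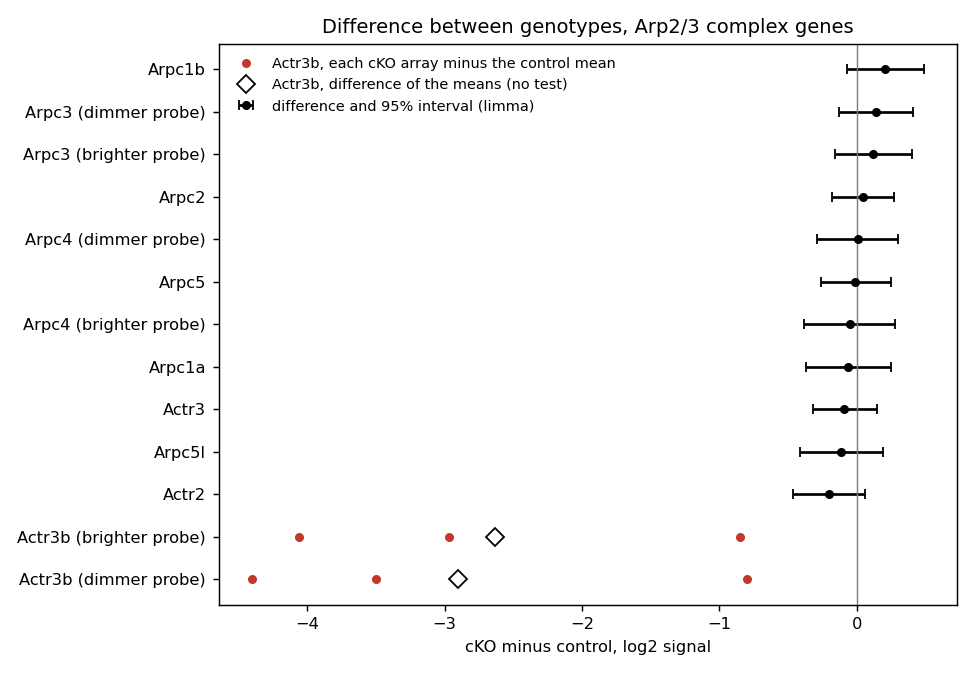
The cKO minus control difference in log2 signal (x axis) is plotted for each Arp2/3 probe (rows), with limma's 95% interval for the 11 tested probes. For Actr3b, points show each cKO array minus the control mean and open diamonds the difference of the means, without an interval because the gene was selected on this difference. Every interval of the 11 probes includes 0, and the Actr3b diamonds lie at -2.63 and -2.9.

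The proteins that switch the complex on or off and the other makers and caps of actin filaments were taken as lists of 69 genes, of which 65 passed the filter on dim probes. Wasf3, Wipf3, Arpin and Actl6b did not. In limma, 0 of the 65 had an adjusted p under 0.05, with 0.12 the smallest, where 0.279% of all 14357 genes tested did. At an unadjusted p under 0.05, 4 were higher in cKO cells, where 12.0% of all genes were, and 4 were lower, where 11.5% were. Their differences lay between -0.66 and 0.71 with a median of -0.02, and 12.3% of them passed unadjusted in either direction, against 23.5% of all genes. The groups did not overlap for 19 of the 65, or 29.2%, against 38.0% of all genes.

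The activators of the WASP family and their partners had 2 of 10 tested genes higher at the unadjusted threshold and 0 lower, with a list median of 0.09. Jmy, an activator that also starts filaments by itself, was at -1.05, -1.07 and -0.13 in the cKO arrays and at -1.35, -1.52 and -1.52 in the controls. The groups were separated, with cKO 3 the highest, and the difference of 0.71 had an adjusted p of 0.2 in limma. Wipf1, which encodes the WASP-stabilizing partner WIP, was at 4.0, 4.17 and 4.3 against 3.63, 3.71 and 3.5. Its cKO arrays were all above the controls, by 0.55 (adjusted p = 0.12). Hcls1, the cortactin of blood cells, differed by -0.09 (adjusted p = 0.68).

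In the WAVE complex, which links Rac to Arp2/3, 1 of 8 genes passed the unadjusted threshold, the Abi family gene Abi3, with a difference of 0.55 (adjusted p = 0.21) and overlapping groups. Its partner Cyfip2 differed by -0.02 (adjusted p = 0.94). In the WASH complex, which activates Arp2/3 on endosomes, 0 of 5 passed the unadjusted threshold in limma, and Washc3, named Ccdc53 on the array, differed by -0.09 (adjusted p = 0.57). Of the 6 tested inhibitors and branch removers, Gmfb, which takes branches off the mother filament, was lower at the unadjusted threshold, by a difference of -0.28 (adjusted p = 0.21). Its levels were 3.05, 2.95 and 2.96 in the cKO arrays and 3.15, 3.23 and 3.4 in the controls, without overlap. Coro1a, the coronin of blood cells, was at 6.8, 6.75 and 6.81 against 6.86, 6.92 and 6.9, a difference of -0.11 (adjusted p = 0.48).

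Rac2, the Rac of blood cells, differed by 0.15 (limma adjusted p = 0.42). Of the 11 genes of actin, monomer and end binding, Capza1 was higher and Twf1 lower at the unadjusted threshold. Capza1, a subunit of the protein that caps growing ends, was at 0.73, 0.86 and 0.54 in the cKO arrays and at 0.2, 0.28 and 0.27 in the controls. Its groups were separated, with a difference of 0.46 (adjusted p = 0.13). Twf1, which encodes the monomer-binding twinfilin, was at 0.73, 0.42 and 0.57 against 0.92, 0.84 and 0.96, a difference of -0.34 (adjusted p = 0.19). Tmsb4x, the monomer-storing thymosin, differed by 0.09 (adjusted p = 0.67).

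Formins build unbranched filaments, and 0 of the 8 tested passed the unadjusted threshold in limma, with a list median of -0.22 and a difference of -0.2 for Fmnl3 (adjusted p = 0.39). The actin-related proteins that are not part of Arp2/3 act in chromatin and in the dynactin complex. Of the 7 tested, 2 were lower at the unadjusted threshold, Actl6a with a difference of -0.57 (adjusted p = 0.18) and Actr6 with -0.26 (adjusted p = 0.2), both chromatin subunits. Actl6a was at 2.43, 2.12 and 1.71 in the cKO arrays and at 2.63, 2.67 and 2.68 in the controls. The groups were separated. The lowest array was cKO 3, as for Actr3b but also for Actr2, Arpc1a, Arpc4, Arpc5 and Arpc5l. Actr10, a dynactin subunit, differed by 0.05 (adjusted p = 0.88).

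**Figure D3:**
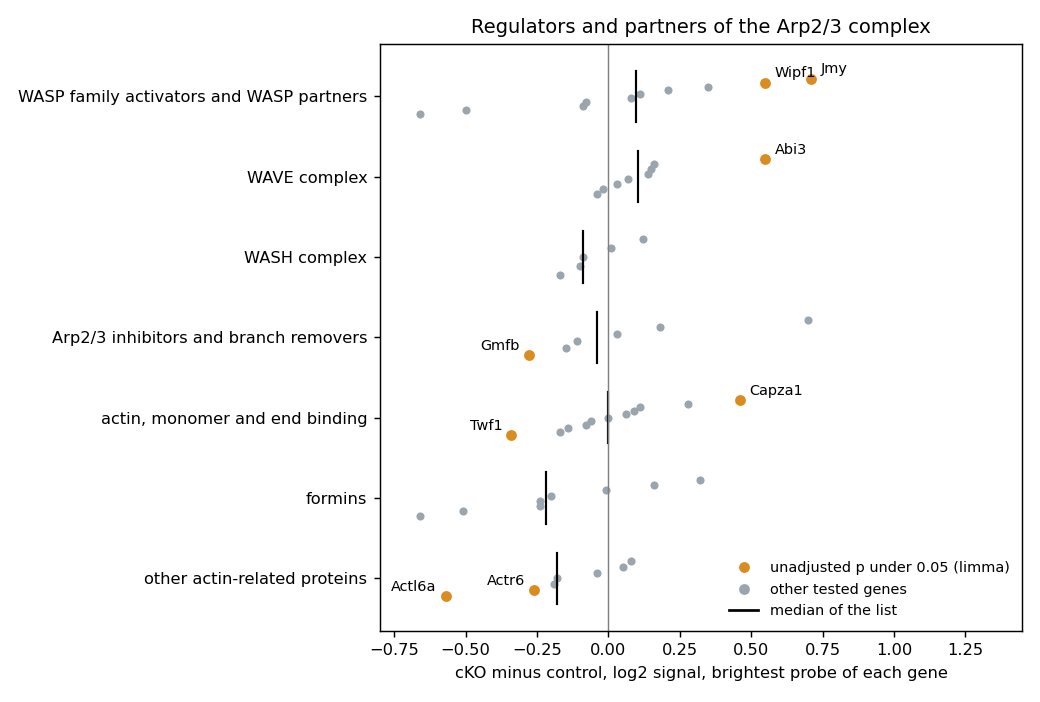
The cKO minus control difference in log2 signal (x axis) is plotted for the brightest probe of each tested gene (points) of the regulator and partner lists described here (rows), with a bar at each list's median. The 8 genes with an unadjusted p under 0.05 are named, and 4 of them lie on each side of 0.

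The genes whose pattern over the 6 arrays was most like that of Actr3b were sought by the root-mean-square difference from its brighter probe, after each probe was centred on its own mean. The dimmer Actr3b probe was at 0.22 log2 units. The nearest other genes were Slfn9 (0.26), a Schlafen family gene, Atp8a2 (0.28), a phospholipid flippase, Acsl6 (0.33), a fatty acid-activating enzyme, Hoxb9 (0.37), a homeobox factor, and Hepacam2 (0.41). All were dim: Slfn9, Atp8a2 and Acsl6 were well above background on the 3 controls and on 1 cKO array, Hoxb9 on 2 controls and 1 cKO array, and Hepacam2 on the 3 controls alone. Slfn9 was at -2.87, -4.69 and -5.36 in the cKO arrays and at -2.43, -2.23 and -1.26 in the controls. Their lower cKO values follow from the choice of the nearest patterns and from a filter that they passed mostly through the controls, and are no result of their own. This likeness is over 6 arrays of dim probes: 4 or 5 of the 5 genes were named again with quantile normalization, the median as scaling point or the authors' table, but 1 of 5 after normexp background correction.

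**Figure D4:**
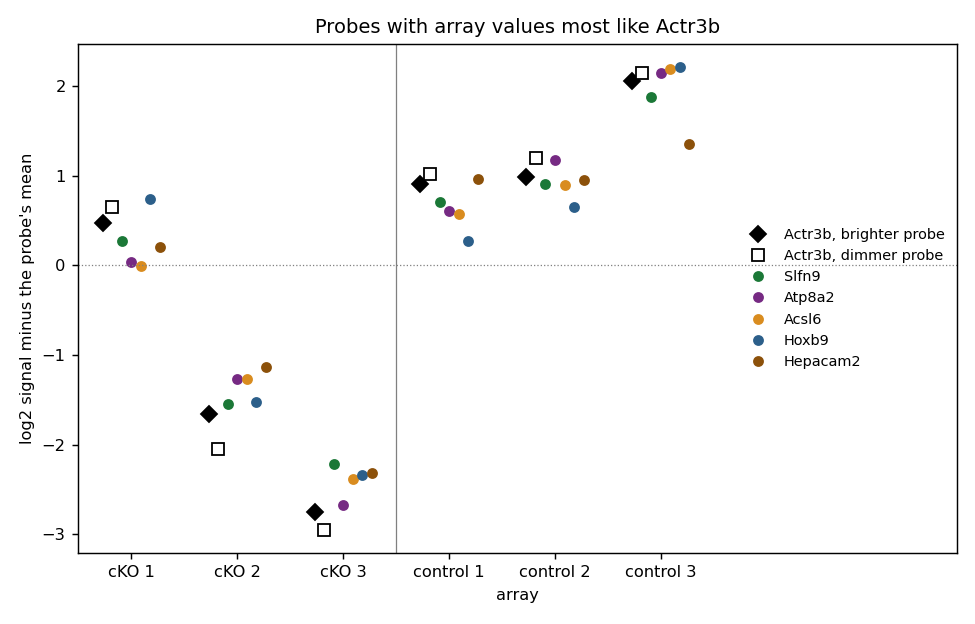
The log2 signal minus the probe's own mean (y axis) is plotted on each of the 6 arrays (x axis) for both Actr3b probes and the 5 genes nearest to the brighter one. On cKO 2 and cKO 3 all points lie under 0, on the controls all lie above it, and on cKO 1 each probe but that of Hoxb9 lies between its own values on the other cKO arrays and on the controls.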

How the data were processed

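RNA of 6 iTreg cultures, 1 for each mouse, was labelled with Cy3 (0.5 μg a sample) and read on 1 array each. The labels and the methods name different extraction kits. Spot intensities deposited by the authors are linear and background-subtracted by Agilent Feature Extraction (version 9.1 in the submitters' processing notes), without normalization between arrays. The authors also deposited a table of log2 values, whose 6 columns all matched a sample and which was used as an alternative.

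Of 45018 spots, 43379 were not controls. Values are the log2 intensity minus the array's 75th percentile, with outlier spots (123 to 140 an array) dropped and spots of a probe averaged. No spot was saturated. Probes called well above background by the scanner on 3 or more of the 6 arrays were fitted with limma 3.58.1 (lmFit, eBayes; R 4.3.3) and adjusted by Benjamini-Hochberg over all 22281, with a threshold of 0.05. The steps were run on simulated data in which 200 probes were changed by a known large amount. This does not show whether differences as small as those of the subunits would be found. Tables and plots used Python 3.11.15, pandas 2.3.3, numpy 2.4.6 and matplotlib 3.10.9, and the robust fit statmod 1.5.0. The number of arrays limits the precision.

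Named are every Arp2/3 probe, brightest first, up to 3 genes a regulator list with an unadjusted p under 0.05, the brightest gene of each list, and the 5 genes nearest to Actr3b in pattern. A regulator was given by its brightest tested probe. Apart from Rac2, the genes of a further regulator list enter only the counts over all lists and are not reported separately here. Alternatives changed the background correction, scaling, filter, test, variance model, block, slide, arrays and probe of a gene. The members and lists were chosen with earlier results of these data known. Probe positions are those of the array's annotation (mm9), and gene order and miRNA sequences come from RefSeq (GRCm38.p6), which listed all 10 genes.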

Additional observations from a re-analysis of the deposited data

How the results depend on the processing

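The Actr3b difference was -2.03 with normexp and the 75th percentile, -2.26 with normexp and quantile normalization and -2.22 with slide as a term. With an array left out it ran from -3.52 (without cKO 1) to -1.91 (without cKO 3). It was below 0 under all 18 alternatives. Actr3b was selected for its fall on these same arrays, so this sign is no test of the difference. The other subunit probes and the regulators gave 0 adjusted calls under every alternative (with an array left out, 0 to 0), and the subunits 0 unadjusted calls. Same-numbered arrays did not deviate together (correlations -0.144, 0.00758 and -0.186), and a replicate block left Actr3b at -2.63 and both counts at 0. Over all probes, the 54 adjusted calls became 115 with normexp and quantile normalization, 0 with normexp and the 75th percentile, 28 with quantile normalization or the authors' table, 77 with the array median, 29 with the percentile taken over probes (chosen after seeing the data), 0 without a filter, 174 when every array had to be well above background, 105 with trend and robust fitting, 0 with the methods' t-test, the block or the slide term, and 0 to 1 with an array left out. Small differences changed sign, none with a call. With normexp and the 75th percentile, which shifted the median of all probes to 0.11, Arpc1b was at -0.04, Arpc2 at -0.18, Arpc3 at -0.11, Rac2 at -0.09, Tmsb4x at -0.16 and Actr10 at -0.25. Without cKO 3, Arpc1a, Arpc4 and Arpc5 were each at 0.05, Hcls1 at 0.02, Tmsb4x at -0.02 and Actr10 at -0.12. With an array left out, these lay between -0.13 and 0.05 (Arpc1a), -0.17 and 0.05 (Arpc4), -0.05 and 0.05 (Arpc5), -0.15 and 0.02 (Hcls1), -0.02 and 0.17 (Tmsb4x), -0.12 and 0.25 (Actr10), and -0.09 and 0.09 (Cyfip2). Actr10 was at -0.00 with slide as a term. Arpc5 was at 0.03 with either quantile normalization or the authors' table, 0.01 without control 1 or control 2 and 0.00 with the percentile over probes. Cyfip2 was at 0.04 with quantile normalization or the authors' table, 0.01 as the mean over its probes and 0.09 without cKO 2. The causes were not tested.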
